A study of Mus musculus with 6 samples.

Results

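The mevalonate arm of cholesterol synthesis was examined in mouse erythroblasts given extra cholesterol. The 9 enzymes, chosen by gene symbol, were Acat2, Hmgcs1, Mvk, Pmvk, Mvd, Idi1, Fdps, Fdft1 and Sqle. They lead from acetoacetyl-CoA to squalene epoxide and do not hold every enzyme of the route. All 9 were among the 17463 genes of the deposited table, and all 9 were among the 11277 genes that passed the filter on low counts. TER119-negative erythroblasts from the fetal liver of C57BL/6J mice, an inbred wild-type strain, spent 30 h in culture with erythropoietin (Epo), the hormone of red cell formation. The medium held no added cholesterol in 3 control samples (C1 to C3) and 40 µM cholesterol in 3 samples (CHO1 to CHO3), and the Epo culture was common to both groups. The study's methods state that cells positive for TER119, a surface protein gained during erythroid maturation, were sorted before sequencing. The labels call the controls untreated, and the study's figure legends call them vehicle controls.

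Cells build cholesterol from acetyl-CoA. The mevalonate arm condenses acetyl-CoA to mevalonate, turns mevalonate into activated isoprene units and joins these units into farnesyl diphosphate and squalene. Squalene epoxidase then turns squalene into squalene epoxide. SREBP2, the product of Srebf2, is a membrane-bound transcription factor that drives the genes of the route when sterols in the endoplasmic reticulum are low. Sterols hold its carrier SCAP in that membrane through the INSIG proteins. SREBP2 binds sterol regulatory elements (SRE) and commonly works beside NF-Y, which binds CCAAT boxes, and Sp1, which binds GC boxes.

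Promoter sequences of the enzymes were read to see what the genes share beside their place in the route. RefSeq windows on GRCm38.p6, from 250 bases before the start site to 50 after it, were matched for 6 of the 9 genes (Acat2, Hmgcs1, Mvk, Pmvk, Mvd and Idi1), with a pair of windows for Pmvk. Fdps, Fdft1 and Sqle are named only. The SRE letters TCACNCCA, searched on both strands, were found in the window of 1 of the 6 genes, Hmgcs1, at -137 from the start site. Among all promoters they were found in 4.36% of 32851 windows and in 1343 of 27025 genes. The stricter letters TCACNCCAC, which contain the shorter motif, were found at the same place and in 1.24% of all windows. CCAAT, on either strand, was present in 5 of the 6 genes, all but Acat2, against 37.4% of all windows and 11096 of 27025 genes. Its number was 5 in Mvk, 4 in Hmgcs1, 2 in Mvd, 2 in Idi1 and 1 in Pmvk. At least 5 copies were found in 0.271% of all windows, at least 4 in 1.06% and at least 2 in 11.7%. GGGCGG, the GC box letters, was present in 5 of the 6 genes, all but Pmvk, against 35.7% of all windows and 10324 of 27025 genes. These matches describe letters and not bound sites. Idi1 is not printed because its stretch lies in an annotated exon.

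Stretches before the start site that overlap no exon of the GENCODE M21 annotation are shown for the gene with the SRE letters and the 3 others with CCAAT boxes. Each is written 5′ to 3′ on the strand of the gene, and capitals mark the SRE letters and the CCAAT boxes, which read ATTGG where a box lies on the other strand. The Hmgcs1 stretch holds 3 of its 4 boxes, since the other lies after the start site, at 10.
Hmgcs1, chr13:119690101-119690328, plus strand: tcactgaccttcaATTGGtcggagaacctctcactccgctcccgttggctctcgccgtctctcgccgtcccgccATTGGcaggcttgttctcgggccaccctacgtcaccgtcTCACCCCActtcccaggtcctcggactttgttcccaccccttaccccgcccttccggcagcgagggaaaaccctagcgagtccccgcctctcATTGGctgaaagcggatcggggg
Mvk, chr5:114444081-114444268, plus strand: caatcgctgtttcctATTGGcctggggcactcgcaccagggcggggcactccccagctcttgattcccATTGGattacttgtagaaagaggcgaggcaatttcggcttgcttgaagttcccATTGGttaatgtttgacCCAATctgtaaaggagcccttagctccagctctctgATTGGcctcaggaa
Mvd, chr8:122443427-122443497, minus strand: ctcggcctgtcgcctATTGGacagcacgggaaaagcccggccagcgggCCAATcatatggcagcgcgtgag
Pmvk, chr3:89454390-89454427, plus strand: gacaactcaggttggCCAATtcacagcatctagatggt

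Total counts per sample ranged from 19826849 to 20061724, so that 3 counts, the smallest level taken as detectable, came to between 0.148 and 0.156 CPM (reads of a gene set against the TMM-adjusted total of its sample). The cell type was as labelled: all 12 erythroid markers were detected, and their summed level ranged from 156576 to 209505 CPM in the controls and from 141100 to 187140 CPM in the cholesterol samples. The samples numbered 3 stood apart in markers of other blood cells. The sum of 10 granulocyte markers was 70.4, 254 and 674 CPM in C1, C2 and C3 and 40.6, 110 and 281 CPM in CHO1, CHO2 and CHO3, and none of the 10 was at 0 in all samples. The sum of 10 macrophage markers was 18.7, 42.7 and 131 CPM in C1 to C3 and 13.9, 20.3 and 61.7 CPM in CHO1 to CHO3. The sum of 8 mast cell and basophil markers, of which Tpsb2 was at 0, was 7.68, 9.71 and 30.8 CPM in C1 to C3 and 2.86, 3.85 and 5.62 CPM in CHO1 to CHO3. Of this sum Gata2 alone gave 6.22, 5.60 and 12.3 CPM in C1 to C3 and 2.37, 2.57 and 2.76 CPM in CHO1 to CHO3. It was thus the larger part in C1, C2, CHO1 and CHO2, where the sum rested mainly on 1 gene. These lists also moved with the treatment in the fit with the replicate block described below, which called 5.20% of all genes lower and 1.65% higher. In that fit 9 of 9 granulocyte and 3 of 3 mast cell and basophil markers tested (Cpa3, Mcpt8 and Gata2) were called lower with cholesterol. Cpa3 had 9 to 147 and Mcpt8 0 to 153 counts per sample. Of 9 macrophage markers 5 were called lower and 1 higher. Of the 12 erythroid markers 11 had a lower mean, and 4 were called lower in that fit by smaller amounts, with log2 fold changes of -0.26 (Hba-a2), -0.18 (Hbb-bs), -0.16 (Tfrc) and -0.14 (Alas2) with condition alone. The sum of 7 hepatocyte markers was 150, 124 and 359 CPM in C1 to C3 and 261, 86.8 and 304 CPM in CHO1 to CHO3, and that of 7 megakaryocyte markers lay between 80.1 and 103 CPM. The 4 adult globin genes took between 12.5% and 17.9% of all counts. The RNA came from sorted populations, in which fewer cells of a type and less RNA per cell cannot be told apart.

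All 9 enzymes had a lower mean with cholesterol, and all 9 were lower in each of the 3 same-numbered pairs, as were 20.1% of all genes tested. For 7 of the 9 the groups did not overlap, with every cholesterol sample below every control, against 4.28% of all genes tested. The exceptions were Acat2 and Idi1, in which C3 lay below the highest cholesterol sample. With the samples numbered 3 left out, a choice made after seeing the data, the groups stood apart for all 9, against 16.9% of all genes. The median log2 fold change of the enzymes was -1.03 (range -2.18 to -0.69), where that of all genes was 0.01. No test over the set was made, since the genes were chosen with results of these data known.

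The test across all genes depended on whether the replicate numbers were used. With condition alone (edgeR quasi-likelihood test, Benjamini-Hochberg adjustment over 11277 genes), 0 of the 9 passed an adjusted p of 0.05, and 0% of all genes were called lower. The adjusted p was 0.864 for Hmgcs1 and 0.9998 for each of the other 8. All 9 had a lower mean with an unadjusted p under 0.05, as had 1.92% of all genes tested. Same-numbered samples deviated together, so the fit with the replicate number as a block is given beside it. In that fit 5 of the 9 were called lower (Acat2, Mvk, Pmvk, Mvd and Sqle) against 5.20% of all genes. DESeq2 with condition alone called 5 (Hmgcs1, Mvd, Fdps, Fdft1 and Sqle) against 0.151% of the 16505 genes given an adjusted p in that fit. DESeq2 with the block called 8, all but Idi1, against 2.16% of 11084 such genes. The blocked edgeR count rested on which pairs were kept. It was 6 of the 9 without pair 1, against 6.12% of all genes, 1 (Mvd) without pair 2, against 1.99%, and 9 without pair 3, against 4.64%, and each of these fits has a single residual degree of freedom per gene. Over 9 alternatives that kept all 6 samples, the highest adjusted p was 0.99987 for Hmgcs1 and 0.99998 for each of the other 8, and the lowest stands in brackets after each enzyme's blocked value below. An exact permutation test of 3 samples against 3 cannot go below p = 0.1.

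**Figure D1:**
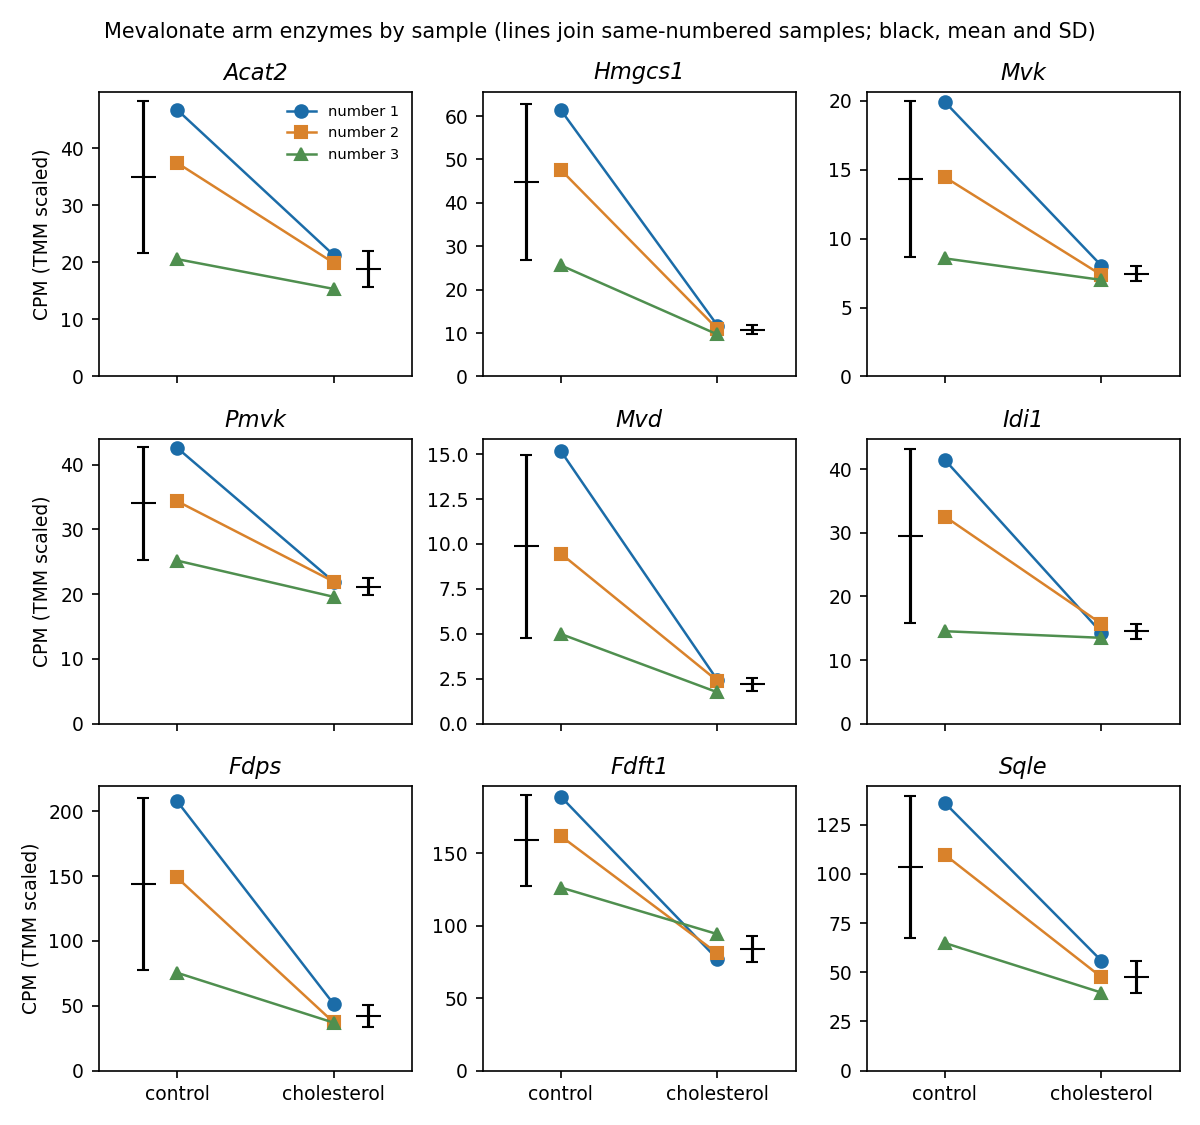
Level of each enzyme in CPM after TMM scaling (vertical axes from 0) in control and cholesterol samples. Colours and symbols mark the replicate number, lines join same-numbered samples, and black bars give the mean and SD of 3 samples. Every line slopes down, and the control points lie far apart while the cholesterol points lie close together.

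The enzymes that make mevalonate and phosphorylate it came first in the route. Acat2 (chr17:12942890-12960747, minus strand, GRCm38, as for all positions below) is the cytosolic acetoacetyl-CoA thiolase, which joins acetyl-CoA units. It is not the acyltransferase that esterifies cholesterol and shares the ACAT name. Its level was 46.8, 37.4 and 20.6 CPM in C1, C2 and C3 and 21.3, 19.9 and 15.3 CPM in CHO1, CHO2 and CHO3. C3 lay just below CHO1, so the groups overlapped. The mean was 34.9 ± 13.3 CPM in controls and 18.8 ± 3.12 CPM with cholesterol (SD, n = 3 each), 1.85-fold lower. The log2 fold change was -0.89 with an SE of 0.30, and the adjusted p with the block was 0.0198 (lowest 3.17e-06). In the same-numbered pairs cholesterol left 45.5%, 53.2% and 74.6% of the control level. Acat2 shares 97.7% identity over 1477 bases with Acat3, whose counts were 14.2 to 32.4 per sample, and 98.7% over 445 bases with Tcp1, a chaperonin subunit gene of higher count (8218 to 12888).

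Hmgcs1 (chr13:119690379-119708260, plus strand), the cytosolic HMG-CoA synthase, is the gene whose promoter holds the SRE letters printed above. Its level was 61.4, 47.6 and 25.6 CPM in C1 to C3 and 11.7, 10.9 and 9.66 CPM in CHO1 to CHO3. The groups stood clear of each other, the lowest control being 2.18 times the highest cholesterol sample. The mean was 44.9 ± 18.045 CPM in controls and 10.8 ± 1.04 CPM with cholesterol, 4.16-fold lower. On the log2 scale the fitted change was -2.06 with an SE of 0.32, and the adjusted p with the block was 0.0504 (lowest 3.02e-09). With condition alone Hmgcs1 ranked 6 among all genes by p. In the pairs 19.1%, 22.9% and 37.8% of the control level was left. An antisense gene, Gm48342, overlaps 557 exonic bases of Hmgcs1 and has no row in the table used here.

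Mvk (chr5:114444269-114460591, plus strand), mevalonate kinase, had 19.9, 14.5 and 8.57 CPM in C1 to C3 and 8.03, 7.36 and 7.003 CPM in CHO1 to CHO3. The groups did not overlap, but C3 was only 1.07 times CHO1. The fitted log2 change was -0.94 with an SE of 0.30, and the adjusted p with the block was 0.0399 (lowest 0.00533). Mmab, which makes a cobalamin cofactor used in mitochondria, starts 209 bases away on the opposite strand, so that the 5 CCAAT boxes of the Mvk stretch lie between both genes. Mmab had 15.9, 12.9 and 8.31 CPM in C1 to C3 and 9.96, 8.45 and 7.16 CPM in CHO1 to CHO3. Its log2 fold change was -0.54 with an SE of 0.26, and its adjusted p was 0.9998 with condition alone and 0.00512 with the block.

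Pmvk (chr3:89454541-89469013, plus strand), phosphomevalonate kinase, had 42.6, 34.4 and 25.2 CPM in C1 to C3 and 21.9, 21.9 and 19.6 CPM in CHO1 to CHO3. It was the member with the smallest difference, 1.61-fold between the means, although its groups did not overlap. edgeR gave a log2 fold change of -0.69 with an SE of 0.19, and the adjusted p with the block was 0.00387 (lowest 2.31e-04).

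Mvd and Idi1 make the isoprene units and Fdps joins them. Mvd (chr8:122433601-122443422, minus strand), mevalonate diphosphate decarboxylase, had 15.2, 9.46 and 4.98 CPM in C1 to C3 and 2.42, 2.37 and 1.74 CPM in CHO1 to CHO3. It was the lowest of the enzymes in counts, with 34 to 49 counts per cholesterol sample, and its groups stood as clear as those of Hmgcs1, at 2.06 times. The mean was 9.87 ± 5.10 CPM in controls and 2.17 ± 0.38 CPM with cholesterol, 4.54-fold lower. The log2 fold change was -2.18 with an SE of 0.42, and the adjusted p with the block was 4.28e-06 (lowest 7.52e-10). In the pairs 15.9%, 25.1% and 34.9% of the control level was left.

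Idi1 (chr13:8885501-8892451, plus strand), isopentenyl diphosphate isomerase, had 41.5, 32.6 and 14.5 CPM in C1 to C3 and 14.3, 15.7 and 13.5 CPM in CHO1 to CHO3. C3 lay within the range of the cholesterol samples, and in its own pair 92.8% of the control level was left, against 34.4% and 48.2% in pairs 1 and 2. On the log2 scale the fitted change was -1.03 with an SE of 0.36. Its adjusted p with the block was 0.392 (lowest 0.390), so Idi1 passed in none of the fits that kept all samples. Its transcripts share at least 95% identity over 200 bases or more with 3 other annotated genes, none in the deposited table. Among them is Gm48574, which overlaps 323 exonic bases of Idi1 on the opposite strand.

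Fdps (chr3:89093588-89101959, minus strand), farnesyl diphosphate synthase, makes the branch point from which sterols, ubiquinone, dolichol and protein prenyl groups derive. Its level was 208, 149 and 75.5 CPM in C1 to C3 and 51.5, 37.3 and 37.0 CPM in CHO1 to CHO3, without overlap. The mean was 144 ± 66.3 CPM in controls and 41.9 ± 8.29 CPM with cholesterol, 3.43-fold lower. The fitted log2 change was -1.78 with an SE of 0.37, and the adjusted p with the block was 0.164 (lowest 2.11e-05). Fdps shares at least 95% identity over 200 bases or more with 5 other annotated genes, mostly pseudogenes and none in the deposited table. Among them is Gm43738, annotated as protein coding, which overlaps 1124 exonic bases of Fdps on the same strand. The Fdps count is uncertain to that extent.

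Fdft1 and Sqle commit the route to sterols. Fdft1 (chr14:63145150-63179578, minus strand), squalene synthase, had 189, 162 and 126 CPM in C1 to C3 and 76.8, 80.9 and 94.2 CPM in CHO1 to CHO3. The groups did not overlap, and Fdft1 was the only member for which CHO3 was the highest cholesterol sample. edgeR gave a log2 fold change of -0.92 with an SE of 0.16, and the adjusted p with the block was 0.266 (lowest 1.52e-04). Fdft1 and Ctsb, a lysosomal protease gene, share 774 exonic bases on opposite strands. The labels describe no strand-specific step, so reads in that stretch cannot be told apart. Ctsb was the more abundant, with 874 to 1069 CPM in controls and 794 to 935 CPM with cholesterol, and its log2 fold change was -0.15 with an SE of 0.11. Fdft1 also shares 97.4% identity over 1249 bases with Gm6781, a processed pseudogene with no row in the table used here.

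Sqle (chr15:59315077-59331192, plus strand), squalene epoxidase, is the first oxygen-requiring enzyme of sterol synthesis. It had 136, 110 and 64.9 CPM in C1 to C3 and 55.8, 47.5 and 39.7 CPM in CHO1 to CHO3, without overlap. The mean was 104 ± 36.0 CPM in controls and 47.7 ± 8.09 CPM with cholesterol, 2.17-fold lower. The log2 fold change was -1.12 with an SE of 0.28, and the adjusted p with the block was 0.0373 (lowest 4.83e-07).

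**Figure D2:**
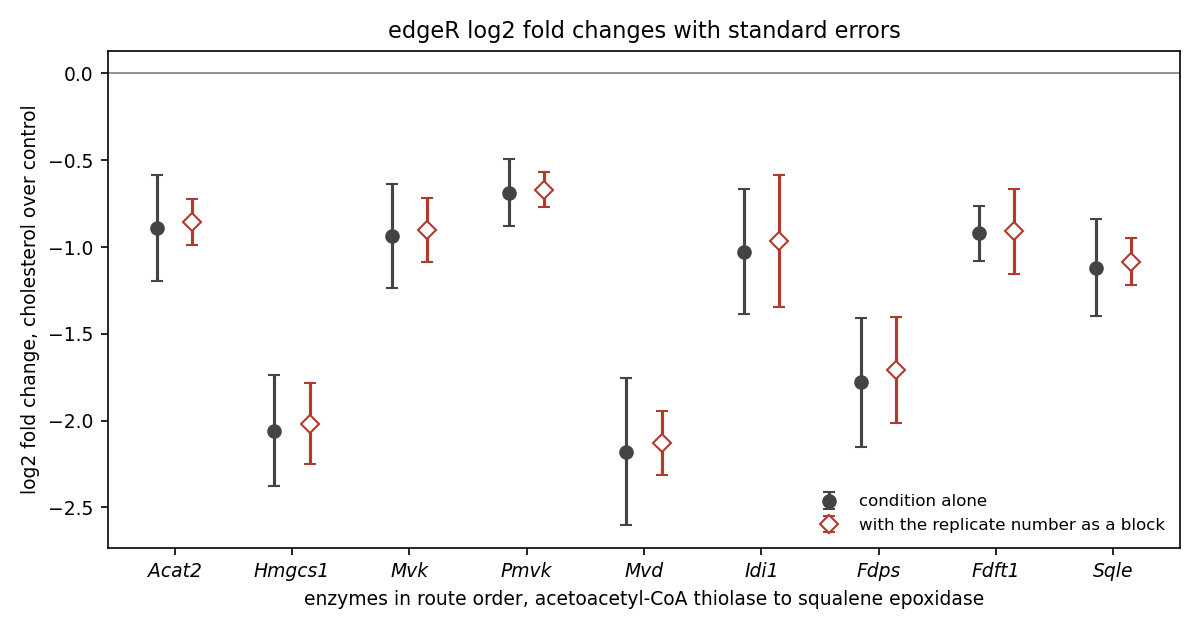
Log2 fold change of each enzyme (vertical axis, cholesterol over control) in route order, as fitted by edgeR with condition alone (filled circles) and with the block of replicate numbers (open diamonds), each with its standard error. All values lie below 0, from -0.69 in Pmvk to -2.18 in Mvd with condition alone, and Hmgcs1, Mvd and Fdps lie lowest.

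The enzymes did not differ between the groups to the same extent. Mvd, Hmgcs1 and Fdps, a group picked after their values were seen, lay lowest, and the other 6 lay above them by 1.10, 1.07 and 0.93 on the log2 scale in pairs 1, 2 and 3 (mean 1.03 ± 0.09, SD). In the order of log2 fold change, Mvd and Hmgcs1 did not differ beyond the spread between pairs (0.08 ± 0.20). Hmgcs1 and Fdps did (0.29 ± 0.14), as did Fdps and Sqle (0.61 ± 0.26). Sqle, Idi1, Mvk and Fdft1 followed each other with differences within the spread (0.17 ± 0.43, 0.04 ± 0.21 and -0.05 ± 0.08). Fdft1 and Acat2 (0.08 ± 0.08) and Acat2 and Pmvk (0.17 ± 0.10) differed in the same direction in 3 of 3 pairs. The 3 lowest are not neighbours in the route, as Mvk and Pmvk stand between Hmgcs1 and Mvd and Idi1 stands between Mvd and Fdps. These comparisons of 3 pairs are descriptions without a test. The order was set by the same samples, so the sign of a difference largely follows from it.

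The control samples differed more among themselves than the cholesterol samples did. In all 9 enzymes C1 was the highest control and C3 the lowest, an order found in 31.0% of all genes tested. C1 exceeded C3 by 1.4955-fold in Fdft1 to 3.04-fold in Mvd. The coefficient of variation over 3 samples was between 19.7% and 51.7% in controls (median 39.7%) and between 6.43% and 19.8% with cholesterol (median 10.8%), and it was larger in controls for all 9. Among all genes tested it was larger in controls for 52.6%, and the medians were 12.2% and 12.1%. Within the pairs the difference was largest in pair 1 and smallest in pair 3 for all 9, with median log2 ratios of -1.31, -1.05 and -0.42. The enzymes were thus lowest in the control with the highest granulocyte (674 CPM), macrophage (131 CPM) and mast cell (30.8 CPM) marker sums and the highest globin share (17.9% of counts, against 14.6% in C1 and 13.8% in C2). In the cholesterol group, CHO3 likewise had the highest granulocyte, macrophage and mast cell sums and the highest globin share (16.2%, against 12.5% in CHO1 and 13.0% in CHO2), and it was the lowest sample for 8 of the 9 enzymes, all but Fdft1. The mean log2 CPM of the 9 was 5.87, 5.48 and 4.69 in C1 to C3 and 4.25, 4.16 and 3.99 in CHO1 to CHO3, so that the same order held in both groups over a narrower range with cholesterol. The part of these cells and of maturation in the spread of the controls was not tested.

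Levels were compared between genes in FPKM, which divides by transcript length. Fdps was the highest of the 9 in 6 of 6 samples and Mvd the lowest in 6 of 6. In controls the means ran from 114 ± 52.9 FPKM for Fdps through 41.8 ± 8.72 for Fdft1, 36.7 ± 13.1 for Sqle, 28.4 ± 7.52 for Pmvk, 16.5 ± 6.40 for Acat2, 12.5 ± 5.12 for Hmgcs1, 10.05 ± 4.74 for Idi1 and 8.17 ± 3.27 for Mvk to 5.50 ± 2.85 FPKM for Mvd. Of these neighbours, Fdft1 and Sqle did not differ beyond the spread of their ratio over samples (log2 ratio 0.24 ± 0.26). With cholesterol Hmgcs1 moved from rank 6 to rank 8, below Idi1 and Mvk, and stood at 3.06 ± 0.34 FPKM. Pmvk and Sqle, at 18.04 ± 1.44 and 17.2 ± 3.21 FPKM, did not differ beyond the spread of their ratio (0.08 ± 0.17). The summed FPKM of the 9 enzymes was 368, 291 and 162 in C1 to C3 and 127, 112 and 104 in CHO1 to CHO3. Fdps made up 44.3%, 41.6% and 35.9% of that sum in C1 to C3 and 33.1%, 26.9% and 28.2% in CHO1 to CHO3. The ratio of Fdps to Fdft1, which draws on its product, was 3.30, 2.77 and 1.80 in C1 to C3 and 2.02, 1.38 and 1.18 in CHO1 to CHO3, so that C3 lay below CHO1. Within pairs the log2 ratio of Fdps to Fdft1 was lower with cholesterol by 0.77 on average (SD 0.20) in 3 of 3 pairs.

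**Figure D3:**
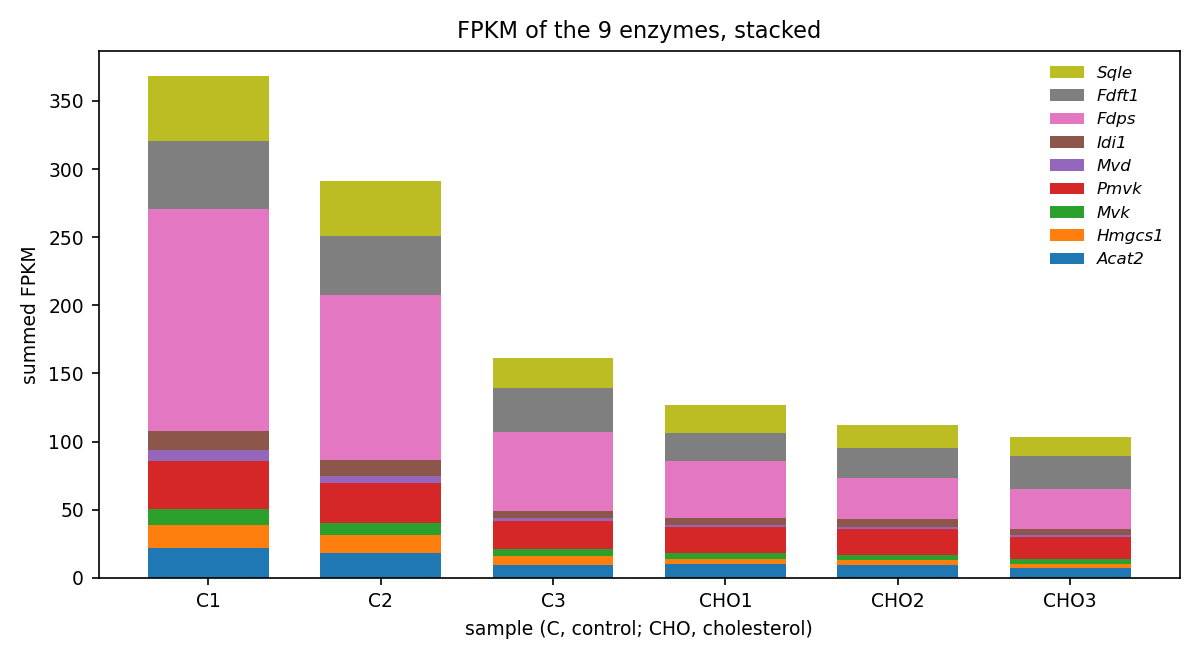
FPKM of the 9 enzymes stacked for each sample (vertical axis from 0, colours mark the enzymes). The stacks reach 368, 291 and 162 in C1 to C3 and lie between 104 and 127 in the cholesterol samples, and the Fdps share narrows.

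The rest of the pathway was read from lists of known genes. All 11 enzymes that act after squalene epoxide had a lower mean with cholesterol, with a median log2 fold change of -1.21. Of these 0 passed in the edgeR fit with condition alone (9 at an unadjusted p under 0.05), 7 with the block, 5 in DESeq2 and 8 in DESeq2 with the block. Msmo1, the sterol C4 methyl oxidase, had 138, 98.4 and 33.9 CPM in C1 to C3 and 13.8, 13.7 and 12.4 CPM in CHO1 to CHO3. Its log2 fold change of -2.76 (SE 0.49) exceeded that of any mevalonate arm enzyme in size, and its adjusted p was 0.9998 with condition alone and 0.179 with the block (lowest 1.39e-07). Hsd17b7, a sterol ketone reductase, had 35.9, 33.0 and 24.0 CPM in C1 to C3 and 15.8, 12.4 and 11.96 CPM in CHO1 to CHO3. Its log2 fold change was -1.21 (SE 0.19), with an adjusted p of 0.864 with condition alone and 1.51e-08 with the block (lowest 3.68e-14). Like the mevalonate arm, both had their highest value in C1.

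Of 7 genes of sterol sensing and its control, 5 had a lower and 2 a higher mean. In edgeR 0 passed with condition alone (3 at an unadjusted p under 0.05), and with the block 0 were called lower and 1 higher. DESeq2 called 2 lower, with and without the block. Srebf2, the gene of SREBP2, had 418, 386 and 289 CPM in C1 to C3 and 148, 130 and 156 CPM in CHO1 to CHO3, without overlap. Its log2 fold change was -1.33 (SE 0.15), with an adjusted p of 0.534 with condition alone and 0.133 with the block (lowest 1.08e-12). Insig1, which holds SCAP in the membrane, had 117, 93.5 and 51.1 CPM in C1 to C3 and 26.8, 21.8 and 28.9 CPM in CHO1 to CHO3. Its log2 fold change was -1.76 (SE 0.31), with an adjusted p of 0.9998 with condition alone and 0.232 with the block (lowest 4.23e-06). In both genes every control lay well above every cholesterol sample, as for Hmgcs1 and Mvd.

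In the acetyl-CoA supply, 3 of 3 genes had a lower mean. Of these 0 passed in edgeR with condition alone (2 at an unadjusted p under 0.05), 2 with the block, 1 in DESeq2 and 2 in DESeq2 with the block. Aacs, which activates acetoacetate for the cytosolic route, had 6.47, 5.94 and 5.66 CPM in C1 to C3 and 3.06, 2.07 and 2.198 CPM in CHO1 to CHO3. Its log2 fold change was -1.30 (SE 0.22), with an adjusted p of 0.9998 with condition alone and 9.01e-05 with the block, its lowest. The controls of Aacs lay close together, unlike those of the 9 enzymes. Acss2, which makes acetyl-CoA from acetate, had a log2 fold change of -0.20 (SE 0.08). Its adjusted p was 0.9998 with condition alone and 0.0832 with the block, so it was not called. The other gene called with the block was Acly, with a log2 fold change of -0.26 (SE 0.15). Its adjusted p with the block was 0.00220 in edgeR and 0.0275 in DESeq2.

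The genes that draw on farnesyl diphosphate for prenylation, dolichol and ubiquinone gave a median log2 fold change of 0.00 over 8 genes, 4 lower and 4 higher, and 0 passed in any of the edgeR and DESeq2 fits with or without the block (0 at an unadjusted p under 0.05 with condition alone). The closest to a call were Pdss1 (log2 fold change 0.12, SE 0.13) and Dhdds (-0.05, SE 0.07) in edgeR with condition alone. Of 3 isozymes outside the arm, 2 passed the edgeR filter on low counts, and 0 of the 3 were called in edgeR or DESeq2, with or without the block (0 at an unadjusted p under 0.05 with condition alone). Acat3, the near copy of Acat2, had a log2 fold change of 0.59 (SE 0.32), and Acat1, the mitochondrial thiolase, had 0.07 (SE 0.15). Idi2, a relative of Idi1, was too low for the edgeR filter.

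The targets of LXR, the nuclear receptor of oxysterols, differed the other way. All 5 had a higher mean, and for 2 of the 5 the groups did not overlap, against 3.72% of all genes higher with cholesterol in that way. In edgeR 1 was called higher with condition alone, against 0.00887% of all genes, and 4 with the block, against 1.65%. DESeq2 called 1 higher, against 0.0121% of 16505 genes, and 3 with the block, against 0.370% of 11084. Abcg1, a sterol exporter, was the single gene called across the whole table in edgeR with condition alone. It had 6.93, 4.36 and 6.38 CPM in C1 to C3 and 101, 93.9 and 99.0 CPM in CHO1 to CHO3, with a log2 fold change of 4.05 (SE 0.18) and an adjusted p of 0.00292. Lpcat3, a phospholipid acyltransferase, was the other gene without overlap, but its highest control (C3, 85.9 CPM) lay just below CHO1 (86.0 CPM). Its log2 fold change was 0.26 (SE 0.11), with an adjusted p of 0.9998 with condition alone and 0.00208 with the block, its lowest.

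**Figure D4:**
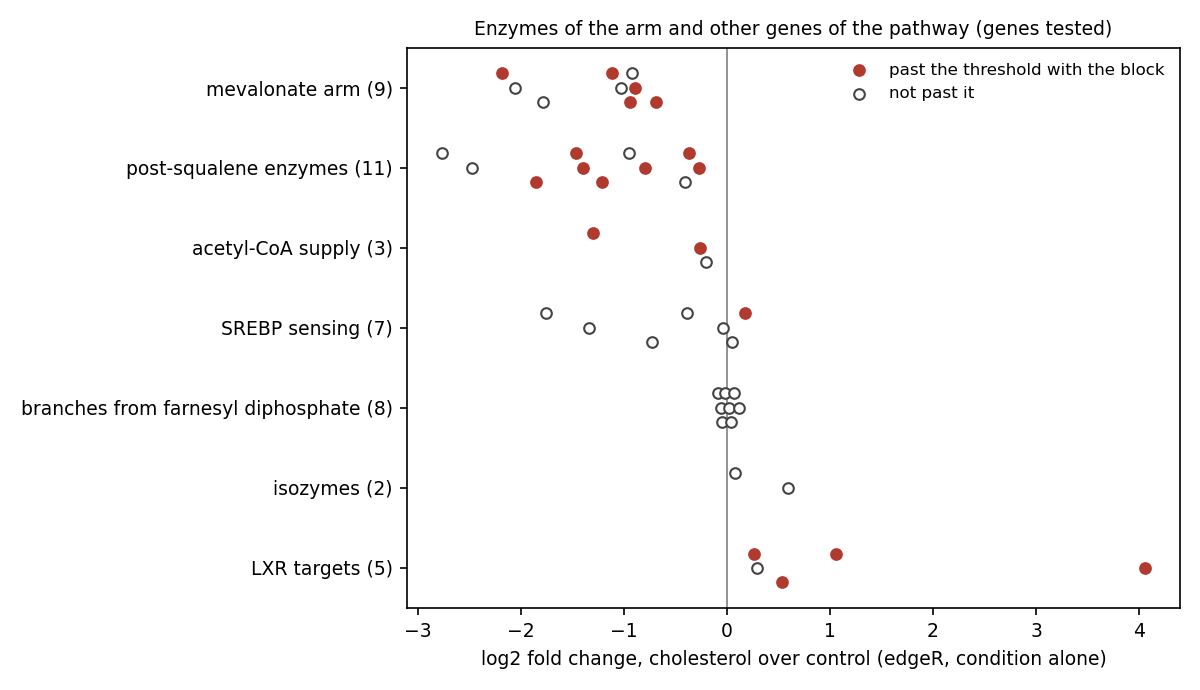
Log2 fold change (horizontal axis, cholesterol over control, edgeR with condition alone) of each tested gene of the mevalonate arm and 6 other lists (vertical axis, number of genes in brackets, points spread vertically to be seen). Filled points passed an adjusted p of 0.05 in the fit with the block. The arm and the 11 later enzymes lie below 0, the 8 farnesyl diphosphate branch genes lie around 0, and Abcg1 is the point at 4.05.

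The 9 enzymes ran closely together over the 6 samples. The Pearson correlation of each with the mean log2 CPM of the other 8 lay between 0.936 (Fdft1) and 0.994 (Pmvk). Among 10405 other genes with a mean of at least 1 CPM, those with the highest correlation with the mean of the 9 were Gng12 (0.999), Gm38481 (0.999), Hist2h2aa1 (0.998), Rdh11 (0.997), Sc5d (0.996), Cyp51 (0.996), Traf7 (0.995), Msmo1 (0.994), Pank3 (0.988) and Tmem41b (0.986). Sc5d, Cyp51 and Msmo1 are enzymes of the later sterol route. Gm38481, which had no entry of that symbol in the annotation used, had 159, 123 and 59.6 CPM in C1 to C3 and 43.6, 40.9 and 35.1 CPM in CHO1 to CHO3. Rdh11, a retinol dehydrogenase, had 47.6, 40.1 and 27.4 CPM in C1 to C3 and 22.8, 21.1 and 18.4 CPM in CHO1 to CHO3. In both, C1 was the highest sample and CHO3 the lowest. Gng12, a G protein subunit, had a far smaller difference, with a log2 fold change of -0.31. Of the 50 genes highest in this order, 11 belonged to the pathway lists, which is 22.0% of the 50 and 30.6% of the 36 pathway genes ranked. The 6 points share the group difference, the order of the controls and the library scaling, so these correlations only describe the pattern. After each group's mean was subtracted, 2 of the 10 genes stayed among the 10 highest.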

How the data were processed

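RNA-seq of 6 samples, 3 control and 3 cholesterol, was analysed as grouped by the treatment label. The authors deposited expected counts per gene, estimates of which 27.9% to 29.5% per sample were not whole, and a second table of normalized values whose unit is not named and whose size corresponds to FPKM. The submitters' processing notes name HISAT2 2.0.4, Bowtie2 2.2.5, RSEM 1.2.12, DESeq2 1.4.5 and GRCm38.p6 without giving their roles. RNA was enriched for poly(A), per the labels.

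Expected counts were rounded and tested with edgeR 4.0.16 in R 4.3.3 (filterByExpr with a minimum count of 10 and a total of 15, TMM, robust quasi-likelihood test, Benjamini-Hochberg adjustment). CPM values are TMM scaled. Total counts ranged from 19826849 to 20061724 per sample. Standard errors were derived from the F statistic. Nothing states that samples came from separate animals, so p-values measure the spread between these samples. Replicate numbers come from the sample titles, which do not say what they mark. The numbers were taken as pairing the samples because samples with a common number departed from the means of their groups together. Over 11268 other genes, on log2(CPM + 0.5), these departures correlated at 0.772, 0.436 and 0.849 for numbers 1 to 3, each above 0.1. Among different numbers C1 and CHO2 (0.415) and C2 and CHO1 (0.218) were also above 0.1, and the other 4 combinations were below 0. No libraries were copies, as chi-square per degree of freedom was at least 8.65 for every pair of libraries.

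The alternatives were DESeq2 1.42.0, limma 3.58.1 on log2(FPKM + 1) and log2(FPKM + 0.1), size factors (RLE), other filters, globin genes left out, the block and left-out samples. The scripts were tested on simulated data. Near copies were sought with BLAST+ 2.17.0 (at least 95% identity over 200 bases) in GENCODE M21 transcripts. Pattern correlations used log2(CPM + 0.01).

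The 9 members and the gene lists were chosen with earlier results of these data known. Named genes are all members, the 2 tested genes with the smallest p in each pathway list and any called, the 10 genes closest in pattern, and genes called with condition alone if 5 or fewer. Neighbouring and near-copy genes (Mmab, Ctsb, Tcp1, Gm48342, Gm6781, Gm43738, Gm48574), Idi2 and Acly are not covered by that choice and were picked with their values known. The same holds for the cell type markers named (Tpsb2, Gata2, Cpa3, Mcpt8, Hba-a2, Hbb-bs, Tfrc, Alas2). Some genes of the pathway lists are not reported here, and counts over the lists leave them out.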

Additional observations from a re-analysis of the deposited data

How the results depend on the processing

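The direction of the 9 enzymes did not depend on the processing. Over 162 refitted values none was reversed, 127 kept their side of the threshold and 35 passed it where the fit with condition alone did not. The number of calls did depend on it. With the replicate block 5 of the 9 enzymes and 772 genes were called, in DESeq2 5 and 27, and in DESeq2 with the block 8 and 280, against 0 and 1 with condition alone. Size factors, both filters, the globin genes and limma with both pseudocounts left these at 0 and 1. Over the fits with samples left out, the enzymes called ranged from 0 to 9, the genes called from 1 to 821 and the median log2 fold change of the enzymes from -1.35 to -0.71.

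The blocked count of enzymes moved with pairs 2 and 3, and that of genes with pair 2. Without pair 1 it was 6 of 9 enzymes and 821 genes, without pair 2 it was 1 (Mvd) and 296, and without pair 3 it was 9 and 726. With condition alone, leaving out C3 called 1 enzyme, Hmgcs1, and 8 genes, and leaving out CHO3 called 2 genes. The cause was not tested. The counts without overlap (7) and lower in every pair (9) were the same in FPKM and in unscaled CPM, and the first was 9 without the samples numbered 3. The ranking by pattern shared 2 of 10 genes with that made after group means were subtracted. With 3 samples a group, differences between enzymes smaller than their spread over pairs could not be resolved.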
